A study of Homo sapiens with 7 samples.

Results

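Gene expression in Huh7 cells treated with either of 2 type III interferons was compared between 16 h and 6 h of treatment. Huh7 is a human hepatoma cell line. The comparison used 4 of the 7 arrays of the study: IFN-λ1 at 20 ng/ml for 6 h, IFN-λ1 at 20 ng/ml for 16 h, IFN-λ4 at 20 ng/ml for 6 h and IFN-λ4 at 20 ng/ml for 16 h. The arrays were chosen by their labels and paired by interferon, 16 h against 6 h, and genes with the same direction in both pairs were followed. The other arrays were untreated cells at 0 h and cells given IFN-α at 10 IU/ml for 6 h and for 16 h. All cells were seeded in 6-well plates and grown overnight in medium with fetal bovine serum before treatment, and RNA was extracted with Trizol. Each condition was 1 array, so the 2 interferons stood in for replicates of a time, and nothing in the labels says whether the cultures were set up separately. There was no untreated culture at 6 h or 16 h. Time under interferon, time in culture and any handling shared by the arrays of 1 time point cannot be told apart here.

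Type III interferons bind a receptor made of IFNLR1 and IL10RB, which is found mainly on epithelial cells, hepatocytes among them. The receptor kinases JAK1 and TYK2 then phosphorylate STAT proteins, STAT2 among them, which join IRF9 in the complex ISGF3. ISGF3 binds the interferon-stimulated response element (ISRE) in the promoters of antiviral genes. In liver cells the type III response is known for building up slowly and lasting, while the type I response to IFN-α peaks early and is damped by USP18, which acts on the IFNAR2 chain of the type I receptor.

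Labelled RNA was measured with Cy5 on 31741 probes, and the values below are normalized intensities of 1 probe per gene. They show how 1 gene differs between arrays and do not compare genes with each other. The median intensity of the 4 IFN-λ arrays as deposited lay between 509 and 601, within the range of 494 to 633 of all 7 arrays. After dim genes were left out, 12835 genes were compared. All 16 hepatocyte markers with a probe were above the dim limit, albumin (ALB) and alpha-fetoprotein (AFP) among them, and their summed level was 2684771 to 2872819 at 6 h and 2842282 to 2959433 at 16 h. Of 14 leukocyte markers with a probe, 9 were above the limit, but PTPRC, CD3E and CD4 were not, and their summed level was 23358 to 24267 at 6 h and 22069 to 23595 at 16 h. Fibroblast markers had 5 of 10 and endothelial markers 6 of 9 above the limit, with summed levels of 7186 to 8808 and 6229 to 7896 at 6 h and of 8100 to 8258 and 7419 to 8277 at 16 h. The arrays read the RNA of a whole well, so a change in a few cells and a change in every cell cannot be told apart.

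Before the values, the promoters of 4 antiviral genes that rose between the times and of the metallothionein gene MT1X, which fell, are shown. The 4 are among the 15 highest genes by the smaller pair difference, and MT1X is among the 15 lowest. Each is the RefSeq sequence of GRCh38.p14 from 250 bases before the gene's start to 50 bases after it, read 5′ to 3′ along the gene. In the first 4 sequences capitals mark matches to GAAA, any 2 bases and GAAA again, a short form of the ISRE searched on both strands. BST2 holds 2 matches that overlap. In the MT1X sequence capitals mark matches to TGCGCNC or TGCACNC, the core of the metal response element that the zinc-sensing factor MTF1 binds. Of its 4 matches 1 lies on the other strand. IFI6 lies on the minus strand at chr1:27672143-27672442, BST2 on the minus strand at chr19:17405581-17405880, IFITM1 on the plus strand at chr11:313790-314089, EIF2AK2 on the minus strand at chr2:37156931-37157230 and MT1X on the plus strand at chr16:56682220-56682519.
IFI6: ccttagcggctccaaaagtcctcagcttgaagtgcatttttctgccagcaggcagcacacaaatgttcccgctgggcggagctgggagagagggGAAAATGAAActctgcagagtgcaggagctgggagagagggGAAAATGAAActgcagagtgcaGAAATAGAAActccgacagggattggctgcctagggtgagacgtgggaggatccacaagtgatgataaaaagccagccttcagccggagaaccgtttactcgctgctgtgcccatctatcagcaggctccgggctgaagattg
BST2: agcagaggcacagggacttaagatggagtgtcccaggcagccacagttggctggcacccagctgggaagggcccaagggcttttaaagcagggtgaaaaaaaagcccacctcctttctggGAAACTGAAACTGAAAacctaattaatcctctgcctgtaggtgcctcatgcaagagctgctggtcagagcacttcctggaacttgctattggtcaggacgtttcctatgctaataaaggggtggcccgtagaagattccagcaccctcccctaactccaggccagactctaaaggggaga
IFITM1: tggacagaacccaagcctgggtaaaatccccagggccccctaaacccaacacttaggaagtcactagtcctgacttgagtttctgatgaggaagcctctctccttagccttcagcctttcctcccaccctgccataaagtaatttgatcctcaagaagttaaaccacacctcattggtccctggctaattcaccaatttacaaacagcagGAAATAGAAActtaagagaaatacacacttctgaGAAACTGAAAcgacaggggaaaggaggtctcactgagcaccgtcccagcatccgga
EIF2AK2: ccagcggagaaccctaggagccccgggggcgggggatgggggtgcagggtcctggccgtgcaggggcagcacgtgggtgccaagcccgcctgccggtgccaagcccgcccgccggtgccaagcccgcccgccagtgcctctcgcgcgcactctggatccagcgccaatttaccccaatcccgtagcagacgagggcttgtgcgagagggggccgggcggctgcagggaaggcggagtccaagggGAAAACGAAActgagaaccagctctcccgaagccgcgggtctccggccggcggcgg
MT1X: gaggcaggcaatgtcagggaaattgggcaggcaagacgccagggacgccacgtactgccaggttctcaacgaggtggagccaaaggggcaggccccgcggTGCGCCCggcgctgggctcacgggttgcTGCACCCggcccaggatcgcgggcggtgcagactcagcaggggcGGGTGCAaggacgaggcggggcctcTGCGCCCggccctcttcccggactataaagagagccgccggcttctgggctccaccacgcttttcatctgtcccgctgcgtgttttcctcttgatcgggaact

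Promoters were matched for 10525 of the 12835 genes, and 297 of these (2.82%) held the ISRE letters. Among antiviral effectors 26 of 43 (60.5%) held them. The share was 11 of 16 (68.8%) for effectors that rose from 6 h to 16 h and 14 of 25 (56.0%) for effectors that were not called. Apart from antiviral effectors, 32 of 984 genes that rose (3.25%) held them. Of all genes that fell, effectors included, 27 of 1184 (2.28%) held them. Both shares were near that of all genes. The metal response letters were common, in 37.4% of the genes compared, and occurred in 4 of 9 metallothionein and zinc transporter genes (44.4%). A match is a description of the letters and not a bound site.

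Over the whole table the IFN-λ1 and IFN-λ4 pairs moved in the same direction for 9215 of 12835 genes (71.8%), 4069 upward (31.7%) and 5146 downward (40.1%). The limma fit with interferon as a block called 1180 genes higher at 16 h (9.19% of those tested) and 1488 lower (11.6%) at an adjusted p under 0.05. Their median absolute change was 0.59 log2 units. At least 2-fold in both pairs were 42 genes on the way up (0.327%) and 30 on the way down (0.234%), all of them called by limma. On 57.2% of genes the 16 h and 6 h arrays did not overlap. Across genes the correlation between the pairs, which share no array, was 0.56 (Pearson) and 0.60 (Spearman), given as a description because genes are not independent replicates.

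The count of called genes was fragile. The fit has 1 residual degree of freedom per gene, and its spread is the disagreement of the 2 interferons moderated across genes. Fits without a block and with 1 array left out called 7 genes without IFN-λ1 at 16 h, 25 without IFN-λ4 at 16 h, 5 without IFN-λ4 at 6 h and 2006 without IFN-λ1 at 6 h. Without the block on all 4 arrays 707 genes were called and 70 of 136 named genes kept their call, with OAS1, IFIT1, USP18, MT1E, MT2A, ROCK1, ERAP1, RIGI, ONECUT1, FADS2 and CDK1 among those that lost it. With the IFN-α pair added no gene was called by limma, while 1941 had an unadjusted p under 0.05. A second probe above the dim limit moved the same way for 444 of 728 called genes (61.0%), against 53.7% of all genes with such a probe. The share rose with the size of the change, to 25 of 32 (78.1%) for mean changes of 2-fold or more, and was 16 of 18 for genes past 2-fold in both pairs. These shares count direction only. In the direction of the call, the median second-probe change was 0.28 log2 units for mean changes of 2-fold or more. It was 0.04 for mean changes of 0.25 to 0.5 log2 units. IFI6 and CYP1A1 were the named genes called without each array in turn. These limits hold for every limma call below, and genes of high level were called more often (28.1% in the highest of 3 level classes against 12.4% in the lowest).

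**Figure D1:**
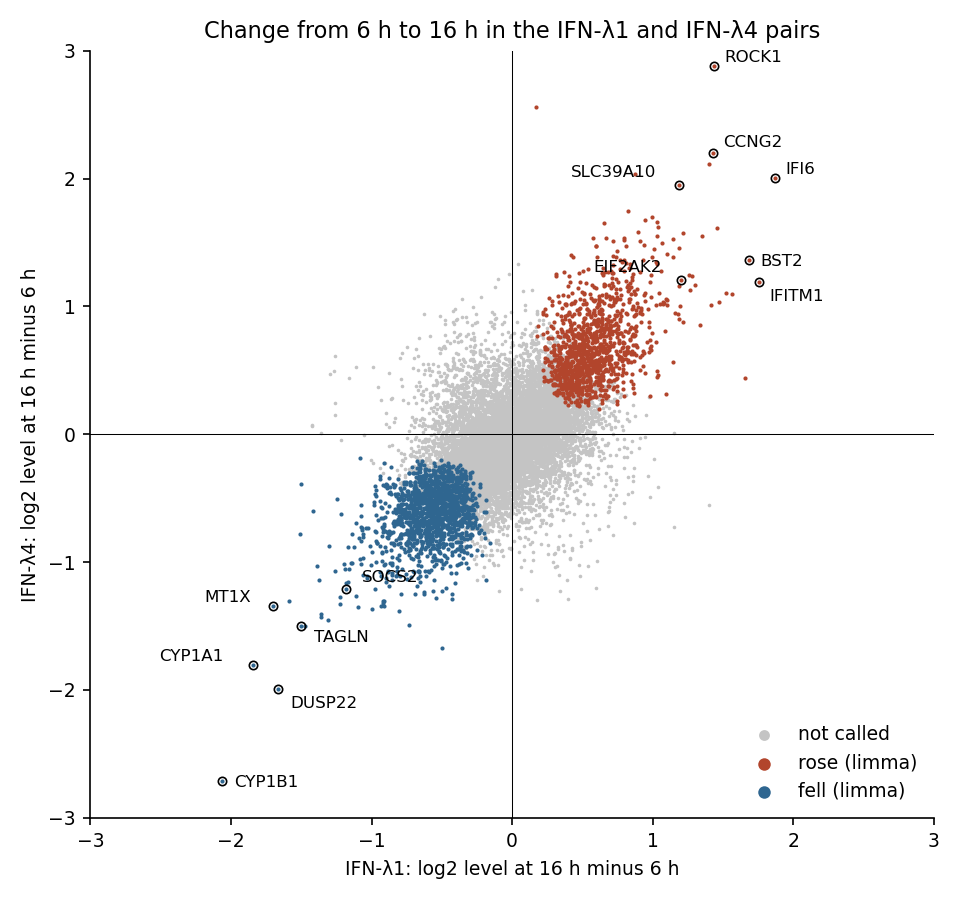
Change from 6 h to 16 h of each of 12835 genes, in log2 units, with the IFN-λ1 pair on the horizontal axis and the IFN-λ4 pair on the vertical axis (5 genes lie outside the axes). Red and blue points are the 1180 genes that rose and the 1488 that fell in the limma fit, which by its design lie where the pairs moved alike, and IFI6 and CYP1B1 stand at opposite ends.

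Of 51 antiviral effectors measured, 31 read at least 2-fold above untreated at both times on both interferons, and 17 of the 51 rose from 6 h to 16 h. IFI6, BST2, IFITM1, IFITM3, EIF2AK2 and OAS3 rose at least 2-fold between the times in each pair, MX1, ISG15, OAS1 and IFIT1 rose by less, and HELZ2, PML and TRIM21 fell. The shares were 33.3% for those that rose and 5.88% for the 3 that fell, against 9.19% and 11.6% of all genes. The median change was 0.28 in the IFN-λ1 pair and 0.01 in the IFN-λ4 pair, beside −0.03 and −0.05 over all genes, and 31 effectors were not called. The housekeeping list had the same share of risers, 4 of 12 (33.3%). They were GAPDH, TFRC, RPL13A and B2M, and B2M is counted again below among the MHC class I genes.

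IFI6 encodes an interferon-induced membrane protein that limits flavivirus replication. With IFN-λ1 its level was 4072 at 6 h and 14919 at 16 h, with IFN-λ4 it was 3759 and 15059, and in untreated cells it was 109. Both 16 h arrays were above both 6 h arrays and the interferons lay close together at each time. The rise was 3.66-fold in the IFN-λ1 pair and 4.01-fold in the IFN-λ4 pair, a mean of 1.94 ± 0.12 log2 units (SE, adjusted p = 0.000146, limma). A second probe changed by 2.50 and 2.34 in the pairs. The untreated readings of IFI6, BST2, IFITM1, IFIT3 and OAS1 lay below the dim limit of 265, so no fold over untreated is given for them.

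The next effectors act on virions and at membranes. BST2 (tetherin) holds budding virions at the cell surface. Its level went from 188 to 607 with IFN-λ1 and from 191 to 492 with IFN-λ4, from 56.1 in untreated cells. Both 6 h readings also lay below the dim limit, and both 16 h arrays were above both 6 h arrays (mean 1.53 ± 0.19, adjusted p = 0.00282, limma). IFITM1, which hinders fusion of viral and cell membranes, went from 1839 to 6207 with IFN-λ1 and from 2123 to 4850 with IFN-λ4, with 82.7 in untreated cells. The arrays again separated by time, with a larger step for IFN-λ1 (3.37-fold against 2.28-fold) and a mean of 1.47 ± 0.16 (adjusted p = 0.0024, limma). IFITM3, a relative that acts in endosomes, went from 1122 to 3314 and from 1219 to 2603, with 268 in untreated cells (mean 1.33 ± 0.17, adjusted p = 0.00282, limma). IFITM genes are close in sequence, so signal of 1 member on the probe of another was not tested.

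EIF2AK2 encodes PKR, the kinase that shuts down translation when it binds double-stranded RNA. Its level was 2263 at 6 h and 5203 at 16 h with IFN-λ1, 1614 and 3719 with IFN-λ4, and 1216 in untreated cells. EIF2AK2 was within 2-fold of untreated at 6 h and past it at 16 h on both interferons, with the same 2.30-fold step in each pair (mean 1.20 ± 0.14, adjusted p = 0.0024, limma). OAS1 makes the oligoadenylates that activate RNase L, and it went from 3211 to 5827 (IFN-λ1) and from 3143 to 4118 (IFN-λ4) over an untreated level of 107. The step between the times was 0.62 ± 0.15 (adjusted p = 0.019, limma), and a second probe changed by 0.67 and −0.01. OAS3, a relative with the same activity, rose by 1.25 ± 0.14 (adjusted p = 0.0024, limma), and it was chosen after its values were seen.

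MX1, a GTPase that traps viral nucleocapsids, went from 5713 to 10736 with IFN-λ1 and from 4922 to 9543 with IFN-λ4, with 406 in untreated cells. The step was nearly equal in the pairs, 1.88-fold and 1.94-fold (mean 0.93 ± 0.12, adjusted p = 0.00282, limma). ISG15, a ubiquitin-like protein attached to other proteins, went from 21210 to 36338 and from 20344 to 30979, with 1377 in untreated cells (mean 0.69 ± 0.11, adjusted p = 0.00443, limma). UBE2L6, the conjugating enzyme for ISG15, went from 5965 to 12156 and from 5706 to 9394 over 2666 in untreated cells (mean 0.87 ± 0.13, adjusted p = 0.00407, limma). IFIT1 binds viral RNA that lacks the host cap, and it went from 44988 to 72209 and from 37934 to 53515 over 798 in untreated cells. Its later step was 0.59 ± 0.10 (adjusted p = 0.00633, limma), while 56.4-fold and 47.5-fold of increase over untreated stood at 6 h. The call for IFIT1 was lost with median centring, and its mean turned to −0.78 when the IFN-α pair was averaged in. IFIT3, which binds IFIT1, read 1630 and 1976 on the IFN-λ1 arrays and 1526 and 1274 on the IFN-λ4 arrays, and did not pass the test (mean 0.01 ± 0.17, adjusted p = 0.979, limma).

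The other effectors that rose were IFI35, MX2, HERC6, PLSCR1, TDRD7 and LGALS3BP, by 0.38 (TDRD7) to 0.75 (LGALS3BP). The 3 that fell were chosen after their values were seen. HELZ2, a helicase, fell by 0.94 ± 0.15 (adjusted p = 0.00513, limma). PML, which organizes nuclear bodies, fell by 0.65 ± 0.12 (adjusted p = 0.00778, limma), and TRIM21, an antibody receptor inside cells, by 0.65 ± 0.15 (adjusted p = 0.0157, limma). IRF7, IFI27, IFI44, IFIT2 and RSAD2 were dim on these probes or had none, and are not analysed here. Against untreated cells, 73 of all genes (0.569%) were at least 2-fold higher on all 4 IFN-λ arrays, and 31 of them were antiviral effectors, some with an untreated reading below the dim limit.

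**Figure D2:**
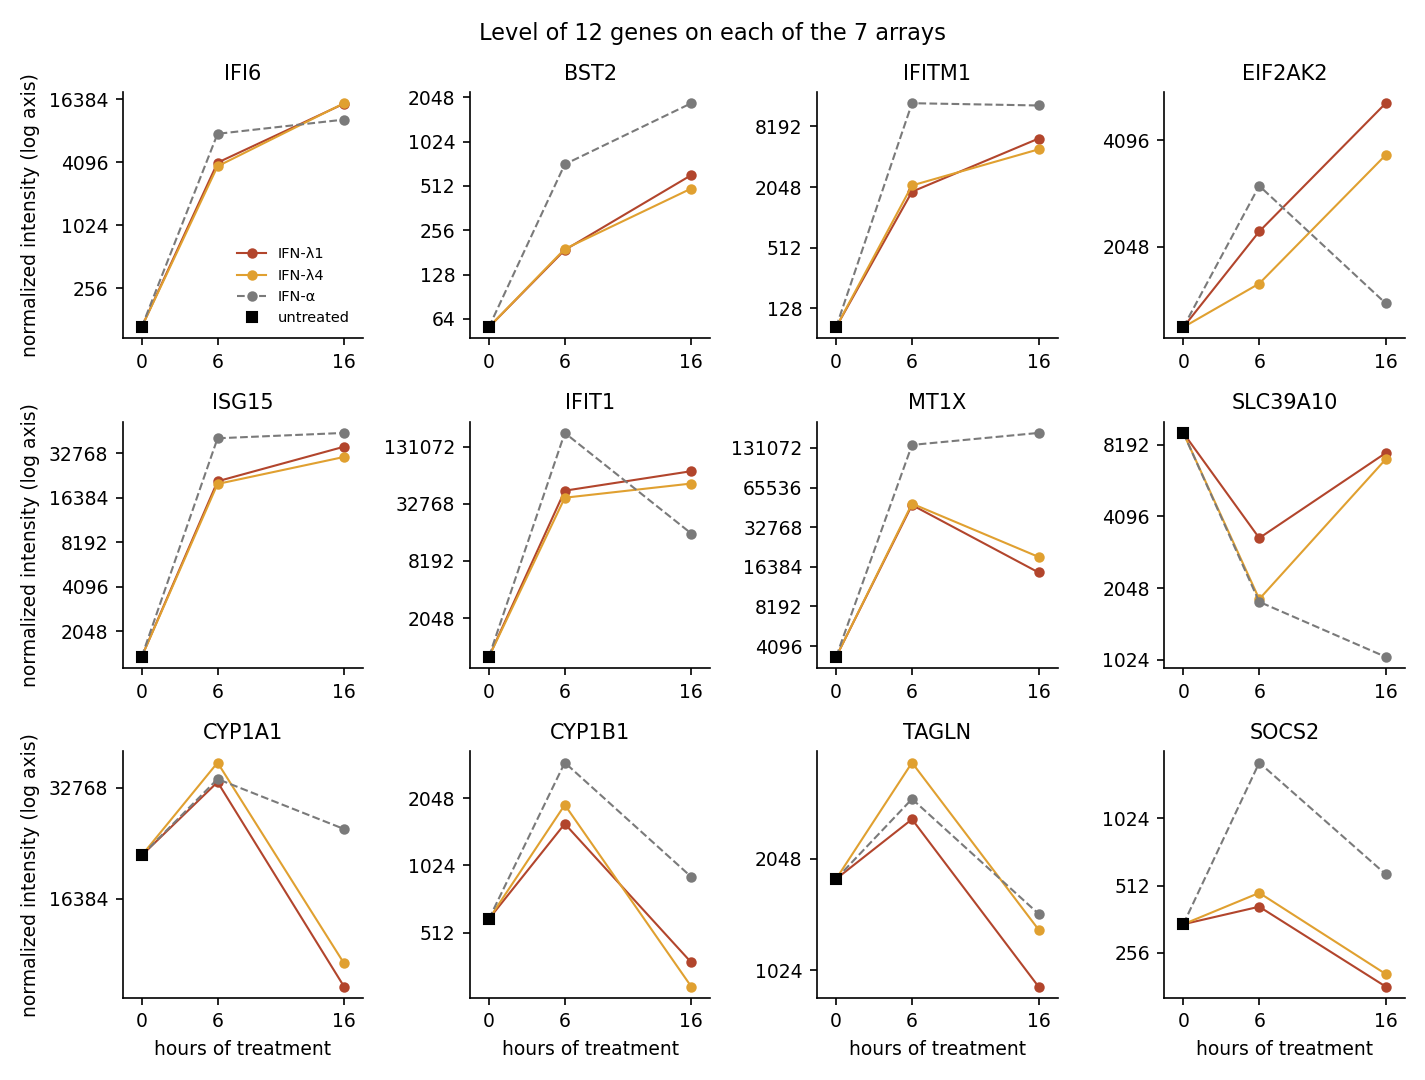
Normalized intensity (log axis) of 12 genes against hours of treatment, 1 point per array, with the untreated array at 0 h shared by all lines. IFI6, BST2, IFITM1 and EIF2AK2 kept rising to 16 h with both IFN-λ, MT1X, CYP1A1, CYP1B1, TAGLN and SOCS2 came down, and SLC39A10 was low at 6 h and near untreated at 16 h.

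**Figure D3:**
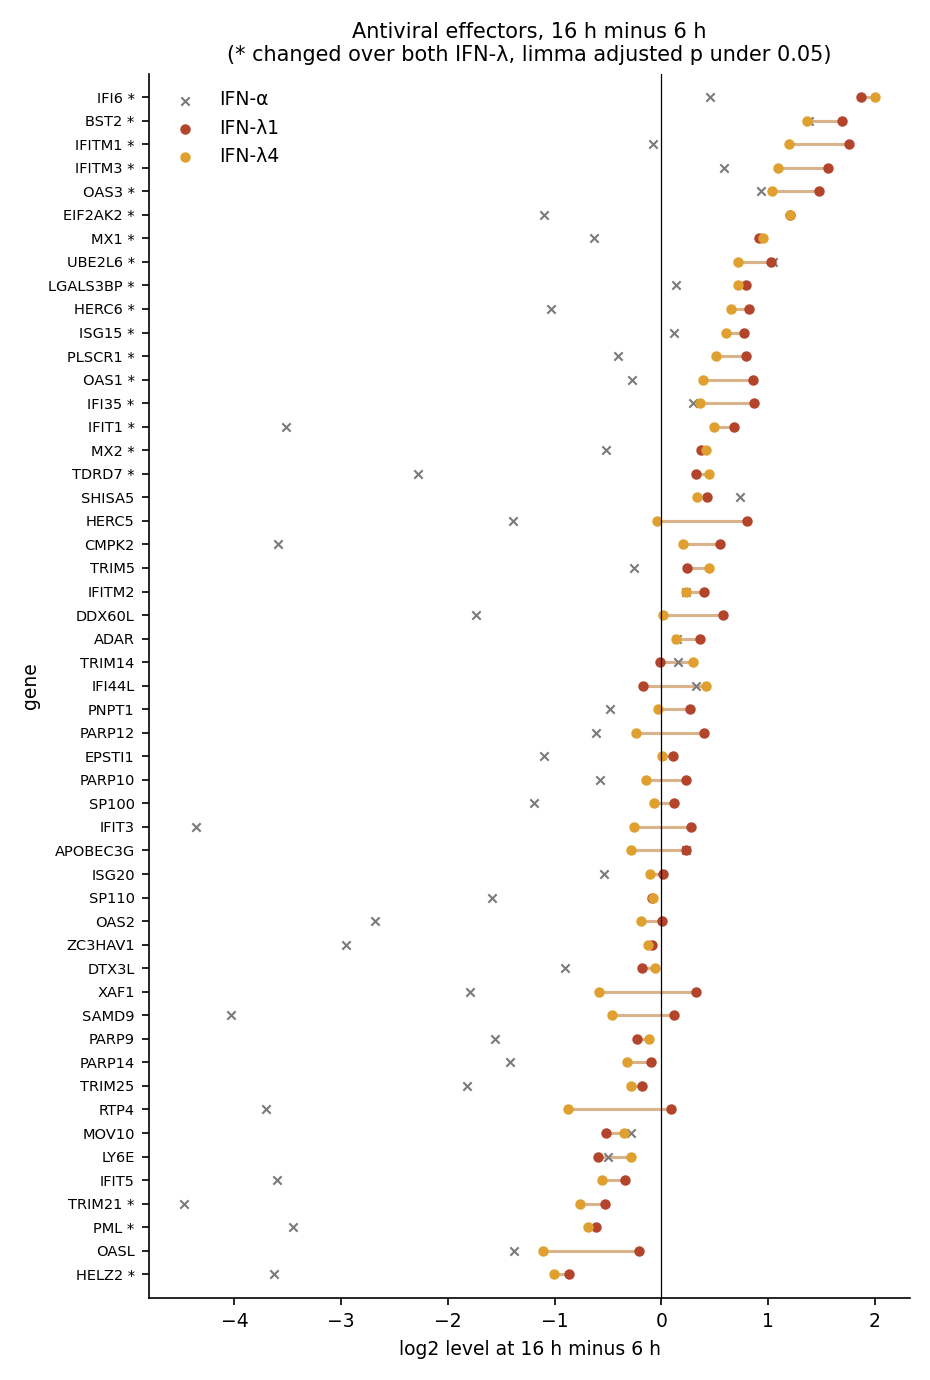
Change from 6 h to 16 h in log2 units of the 51 antiviral effectors measured, in order of the IFN-λ mean, with circles for the IFN-λ1 and IFN-λ4 pairs and crosses for the IFN-α pair. The 20 genes with a star changed over both IFN-λ pairs in the limma fit, IFI6 is at the top, and 37 of the 51 crosses lie below 0.

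Of 12 genes listed as negative regulators of interferon signalling USP18, PTPN11 and UBE2L6 rose (25%) and SOCS2 fell (8.33%), against 9.19% and 11.6% of all genes. UBE2L6 was also counted among the antiviral effectors above. USP18, which removes ISG15 from proteins and restrains the type I receptor, went from 4973 to 11359 with IFN-λ1 and from 2772 to 6187 with IFN-λ4, with 1302 in untreated cells. Both pairs rose by about the same step (mean 1.18 ± 0.12, adjusted p = 0.0024, limma), but its second probe changed by 0.16 and 0.06. SOCS2, a cytokine-signalling suppressor best known for growth hormone, went from 412 to 181 and from 475 to 206, with 344 in untreated cells. SOCS2 fell by 1.20 ± 0.18 (adjusted p = 0.00443, limma) and ended below untreated on both interferons, but both 16 h readings lay below the dim limit of 265. PTPN11, a phosphatase, rose by 0.54 ± 0.10 (adjusted p = 0.00809, limma). SOCS1 and SOCS3, which restrain JAK kinases, did not pass the test (0.45 ± 0.17 and −0.34 ± 0.18, adjusted p of 0.082 and 0.212, limma).

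Among 11 receptor and JAK-STAT genes, TYK2 and IFNAR2 rose (18.2%) and STAT3 fell (9.09%), against 9.19% and 11.6% of all genes. TYK2 went from 1230 to 2050 and from 1119 to 2129, with 2081 in untreated cells, so its 16 h levels were near untreated (mean 0.83 ± 0.15, adjusted p = 0.00763, limma). IFNAR2 rose by 0.59 ± 0.15 (adjusted p = 0.0249, limma) and STAT3 fell by 0.47 ± 0.13 (adjusted p = 0.0286, limma). Their second probes moved the other way, by −0.49 and −0.48 for IFNAR2 and by 0.18 and 0.21 for STAT3, and both calls were lost with the mean over probes. IRF9, through which ISGF3 contacts DNA, read 47205 and 31635 on the IFN-λ1 arrays and 39394 and 35370 on the IFN-λ4 arrays, far above the untreated 7749 at both times (−0.37 ± 0.12, adjusted p = 0.0576, limma). IL10RB, JAK1, JAK2 and STAT2 were not called, and IFNLR1 was dim.

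Of 15 MHC class I and immunoproteasome genes measured, 3 rose and none fell (background 9.19% and 11.6%). B2M, the light chain of MHC class I, went from 78451 to 108314 and from 72379 to 105437, with 76758 in untreated cells, so it lay near untreated at 6 h and above it at 16 h (mean 0.50 ± 0.10, adjusted p = 0.00786, limma). ERAP1, which trims peptides, rose by 0.75 ± 0.15 (adjusted p = 0.00926, limma) and PSME2, a proteasome activator subunit, by 0.44 ± 0.10 (adjusted p = 0.016, limma). ERAP1 read 0.802 and 0.549 of untreated at 6 h with IFN-λ1 and IFN-λ4, and 1.22 and 1.02 of it at 16 h. With median centring the call for B2M was lost, and with the mean over probes that for ERAP1, whose second probe changed by −0.15 and −0.33.

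Of 13 chemokine and cytokine genes 2 rose and 2 fell (15.4% each), beside 9.19% and 11.6% of all genes. CCL20, a chemokine for CCR6-bearing lymphocytes, went from 133564 to 219578 and from 132249 to 189481, and TNFSF10 (TRAIL) went from 2457 to 4245 and from 2614 to 4202. Both rose, by 0.62 ± 0.10 (adjusted p = 0.00462, limma) and 0.74 ± 0.14 (adjusted p = 0.00748, limma), though the call for CCL20 was lost under median centring and a second probe of TNFSF10 changed by −0.24 and 0.15. The neutrophil chemokines CXCL8 and CXCL1 fell by 0.63 ± 0.16 and 0.54 ± 0.13 (adjusted p of 0.0224 and 0.0207, limma).

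Metallothioneins, small metal-binding proteins made when free zinc rises, went the other way from the antiviral genes named first. Of 12 metallothionein and zinc transporter genes, 6 fell (against 11.6% of all genes) and 2 rose, with medians of −0.39 and −0.35 in the IFN-λ1 and IFN-λ4 pairs. MT1X went from 48298 to 14852 with IFN-λ1 and from 49460 to 19491 with IFN-λ4, with 3389 in untreated cells. Both 16 h arrays were well below both 6 h arrays and still above untreated, 4.38-fold and 5.75-fold. MT1X fell by 1.52 ± 0.12 log2 units (adjusted p = 0.000738, limma).

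The other metallothioneins measured fell less, and MT1F, MT1G, MT1H and MT1M were dim on these probes or had none. MT1E went from 42300 to 23500 and from 49263 to 32380, with 2445 in untreated cells (−0.73 ± 0.11, adjusted p = 0.0042, limma). MT2A went from 82973 to 55681 and from 85328 to 68006, with 11850 in untreated cells (−0.45 ± 0.10, adjusted p = 0.0157, limma), and its call was lost with median centring and without the variance trend. MT1A and MT1B fell by 0.60 and 0.57. Metallothionein genes are near copies of each other, so how far their probes share signal was not tested.

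Zinc carriers moved in opposite directions. SLC30A1, the zinc exporter of the plasma membrane and like the metallothioneins a target of MTF1, went from 1917 to 1047 and from 1948 to 855 over 573 in untreated cells. SLC30A1 fell by 1.03 ± 0.16 (adjusted p = 0.00486, limma). SLC39A10, a zinc importer, was low at 6 h and near untreated at 16 h: its level went from 3321 to 7562 with IFN-λ1 and from 1841 to 7120 with IFN-λ4, with 9177 in untreated cells. The rise was 2.28-fold and 3.87-fold (mean 1.57 ± 0.18, adjusted p = 0.0024, limma). SLC30A5, a zinc carrier of the secretory pathway, rose by 0.65 ± 0.14 (adjusted p = 0.0117, limma).

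Of the named genes, CYP1B1 and CYP1A1 fell the most by the smaller pair difference. They encode cytochromes and are well-known targets of the aryl hydrocarbon receptor. CYP1A1 went from 33945 to 9465 with IFN-λ1 and from 38323 to 10941 with IFN-λ4, with 21463 in untreated cells. It was above untreated at 6 h and below it at 16 h on both interferons, a fall of 3.59-fold and 3.50-fold (−1.83 ± 0.11, adjusted p = 0.000146, limma). CYP1B1 went from 1575 to 376 and from 1915 to 293, with 589 in untreated cells, and followed the same course (−2.39 ± 0.20, adjusted p = 0.000996, limma).

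TAGLN, TUBA1A and CCN1 also fell. TAGLN, an actin-binding protein, went from 2620 to 926 and from 3724 to 1320, with 1808 in untreated cells (−1.499 ± 0.15, adjusted p = 0.00209, limma). TUBA1A, an alpha-tubulin, went from 3835 to 1385 and from 4070 to 1441, and with 3839 in untreated cells it was the 1 gene within 2-fold of untreated at 6 h and 2-fold lower at 16 h on both interferons (−1.48 ± 0.14, adjusted p = 0.00189, limma). CCN1, a secreted matrix protein induced early by serum and by YAP, went from 2841 to 946 and from 2354 to 952, with 1858 in untreated cells (−1.45 ± 0.16, adjusted p = 0.0024, limma). CCN2, a close relative of CCN1, changed by −0.10 ± 0.10 and did not pass the test (adjusted p = 0.551, limma). Of 16 TGF-β and YAP targets 4 fell (CCN1, TAGLN, AJUBA and TGFB1, 25%) and ID3 rose (6.25%), against 11.6% and 9.19% of all genes. A second probe of ID3 changed by −0.57 and −0.20, and its call was lost with the mean over probes.

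The remaining genes among the 15 lowest by rule were DUSP22, WNT11, F2RL2, HSPB8, ANXA3, SLCO2A1, SOCS2, EPPK1 and CASZ1. DUSP22, a phosphatase, went from 2176 to 686 and from 3568 to 896, with 981 in untreated cells (−1.83 ± 0.16, adjusted p = 0.00128, limma). WNT11, a secreted WNT ligand, went from 2870 to 1116 and from 2714 to 1022, with 1320 in untreated cells (−1.39 ± 0.15, adjusted p = 0.0024, limma). Both were over 2-fold above untreated at 6 h and within 2-fold at 16 h, a course taken by 35 genes (0.273%). EPPK1, GADD45B and SLC30A1 were others of these 35. ANXA3, an annexin, went from 23239 to 9953 and from 22572 to 9003, with 16268 in untreated cells (−1.27 ± 0.11, adjusted p = 0.00128, limma). A second probe of CASZ1 changed by −0.03 and −0.35 against −1.16 in each pair for the probe used. Of the 15 lowest, ANXA3, CCN1, DUSP22, MT1X and WNT11 changed with IFN-α by 0.004 (CCN1) to 0.71 (WNT11). The others of the 15 were lower at 16 h with IFN-α too, with changes of −0.45 (CYP1A1) to −3.02 (F2RL2).

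Stress genes of other kinds changed in both directions. HMOX1 (heme oxygenase) went from 1616 to 892 and from 2145 to 973, with 943 in untreated cells, and OSGIN1, an oxidative stress gene, from 11120 to 5149 and from 13483 to 5597, with 6865 in untreated cells. They fell by 1.00 ± 0.16 and 1.19 ± 0.12 (adjusted p of 0.00522 and 0.00224, limma), and SRXN1 fell too, while ME1 and TALDO1, of the same list of 16 NRF2 targets, rose. In that list 18.8% fell and 12.5% rose, against 11.6% and 9.19% of all genes. Of 27 immediate early genes 7 fell (25.9%) and 2 rose (7.41%), against 11.6% and 9.19% of all genes. JUN, JUNB, JUND, FOSB, DUSP1, ZFP36 and CCN1 made up the 7, by 0.39 (DUSP1) to 1.45 (CCN1), and EGR1 and DUSP6 the 2.

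Heat shock proteins changed both ways: 5 of 16 rose (31.2%) and 3 fell (18.8%), against 9.19% and 11.6% of all genes, with medians of 0.22 and 0.23. HSPH1, a co-chaperone of HSP70, went from 31266 to 49616 and from 28409 to 50237, with 40535 in untreated cells (0.74 ± 0.10, adjusted p = 0.00344, limma). HSP90AA1, HSPA1A, DNAJA1 and DNAJB4 rose with it. HSPB8, a small heat shock protein, went from 1969 to 794 and from 1993 to 727, with 1136 in untreated cells (−1.38 ± 0.16, adjusted p = 0.0024, limma), and HSPB1 and the factor HSF1 fell. Of 18 unfolded protein response genes XBP1, DNAJB9 and SEL1L rose and none fell, with medians of 0.25 and 0.26, and all 3 calls were lost under median centring. A second probe of SEL1L changed by −0.24 and −0.26.

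Besides IFI6, BST2, IFITM1 and EIF2AK2 the 15 highest genes by rule were 11 genes that lay below untreated at 6 h on both interferons. They were SLC39A10, ROCK1, CCNG2, RIF1, IK, DGCR5, CCNC, OSGEPL1, PIK3CA, ZCCHC7 and UFM1. With IFN-α, SLC39A10 and UFM1 were lower at 16 h than at 6 h. The others of the 11 were higher with IFN-α too, by 0.58 (ZCCHC7) to 1.48 log2 units (ROCK1). ROCK1, a kinase that drives actomyosin contraction, went from 1161 to 3143 with IFN-λ1 and from 262 to 1927 with IFN-λ4, with 1447 in untreated cells. The IFN-λ4 array of 6 h was far below the other 3 and just under the dim limit of 265. The rise was 2.71-fold against 7.37-fold (mean 2.16 ± 0.28, adjusted p = 0.00287, limma). IK, a spliceosome protein, went from 1518 to 4162 and from 936 to 2868, with 2610 in untreated cells (1.54 ± 0.15, adjusted p = 0.00189, limma).

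CCNC, the cyclin of the Mediator kinase module, went from 5778 to 13426 and from 4471 to 13320, with 8768 in untreated cells (1.40 ± 0.13, adjusted p = 0.00189, limma). CCNG2, a cyclin linked to growth arrest, went from 371 to 1000 and from 177 to 812, with 612 in untreated cells (1.82 ± 0.21, adjusted p = 0.00251, limma). The reading of 177 for CCNG2 lay below the dim limit. A second probe of CCNG2 changed by 0.06 and −0.02, and that of ZCCHC7 by 0.12 and 0.09. The second probe of UFM1, a ubiquitin-like modifier, changed by 0.66 in each pair.

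Against untreated cells, 23 genes (0.179%) were over 2-fold lower at 6 h and within 2-fold at 16 h on both interferons, and limma called all 23 as rising. SLC39A10 and DGCR5, a non-coding RNA gene, were among them. Over all genes that rose, 1001 of 1180 lay below untreated at 6 h on both interferons, and 836 were nearer untreated at 16 h than at 6 h. Of the genes that fell, 1378 of 1488 lay above untreated at 6 h and 1073 were nearer untreated at 16 h. These counts use the same 6 h arrays as the change itself, so such a tilt is built in, and over all genes 4417 lay below untreated and 4859 above it at 6 h on both. By contrast, 13 genes (0.101%) were within 2-fold at 6 h and over 2-fold higher at 16 h. Besides EIF2AK2 they included F13B, a coagulation factor subunit, CYP3A5, a drug-metabolizing cytochrome, and ACSL1, which activates fatty acids. F13B and ACSL1 were chosen from the 13 after their values were seen.

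Of 35 hepatocyte secreted proteins 5 rose (14.3%) and none fell, against 9.19% and 11.6% of all genes. F2 (prothrombin) went from 13958 to 22765 and from 13545 to 24356, with 20344 in untreated cells (0.78 ± 0.11, adjusted p = 0.00357, limma). SAA4, a serum amyloid protein carried on high-density lipoprotein, went from 1161 to 2312 and from 1337 to 2318, with 1251 in untreated cells, and was near untreated at 6 h and above it at 16 h (0.89 ± 0.15, adjusted p = 0.00613, limma). FGA, F5 and ITIH2 rose as well, with the call for FGA lost under median centring and that for F5 with the mean over probes. ALB read 200325 and 204320 on the IFN-λ1 arrays and 136036 and 191208 on the IFN-λ4 arrays (0.26 ± 0.12, adjusted p = 0.141, limma).

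Of 21 hepatocyte transcription factors 5 rose (23.8%) and none fell, against 9.19% and 11.6% of all genes. ONECUT1 rose by 0.93 ± 0.16 (adjusted p = 0.00581, limma), NR2F1 by 0.75 ± 0.12 (adjusted p = 0.00443, limma) and NR1H4, the bile acid receptor FXR, by 0.61 ± 0.11 (adjusted p = 0.00684, limma). GATA4 and GATA6 made up the 5. NR2F1 read 0.536 and 0.601 of untreated at 6 h with IFN-λ1 and IFN-λ4, and 0.945 and 0.962 of it at 16 h. ONECUT1 read 1.07 and 0.753 of untreated at 6 h, and 1.82 and 1.6 of it at 16 h.

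The lists for growth and lipids are likewise to be set beside 9.19% of all genes that rose and 11.6% that fell. Of 23 ribosome biogenesis genes 7 rose (30.4%) and 1 fell. POLR1B, a subunit of RNA polymerase I, rose by 0.69 ± 0.12 (adjusted p = 0.00651, limma), but its second probe changed by −0.10 and −0.26 and its call was lost with the mean over probes. Of 17 respiratory chain genes NDUFB5, NDUFV1, UQCRC1 and UQCRC2 rose and none fell, with NDUFB5 and NDUFV1 not called under median centring. Of 29 G2/M genes 5 rose, CDK1 (0.65 ± 0.11, adjusted p = 0.00626, limma) and BUB1 (0.76 ± 0.13, adjusted p = 0.00582, limma) among them, and CENPA fell. Of 31 G1/S genes 3 rose, PCNA among them, and 3 fell. POLR1B, CDK1, BUB1 and PCNA lay below untreated at 6 h on both interferons. At 16 h they were near it, at 0.925 (CDK1, IFN-λ4) to 1.14 (CDK1, IFN-λ1) of untreated. Of 23 p53 targets and apoptosis genes 5 fell and 2 rose, with ZMAT3 falling by 0.65 ± 0.14 and BAX rising by 0.74 ± 0.12 (adjusted p of 0.0118 and 0.0055, limma). A second probe of ZMAT3 changed by 0.79 and 0.44, and its call was lost with the mean over probes.

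Lipid lists had calls both ways. Of 16 fatty acid genes FADS2, ELOVL5, ELOVL6, ME1 and LPIN1 rose, and FASN and DGAT2 fell. FADS2, a fatty acid desaturase, went from 1326 to 2104 and from 782 to 2267, with 2593 in untreated cells (1.10 ± 0.21, adjusted p = 0.00778, limma). Of 20 cholesterol synthesis genes 4 rose and 3 fell. These shares stand beside 4 of 12 risers and 2 of 12 fallers in the housekeeping list, where GAPDH rose by 0.57 ± 0.09 (adjusted p = 0.00527, limma) and YWHAZ fell by 0.55 ± 0.10 (adjusted p = 0.00705, limma). The medians of the NF-κB, hypoxia and glycolysis, fatty acid, hepatocyte secreted and lysosome lists changed sign under median centring and under the deposited scaling.

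**Figure D4:**
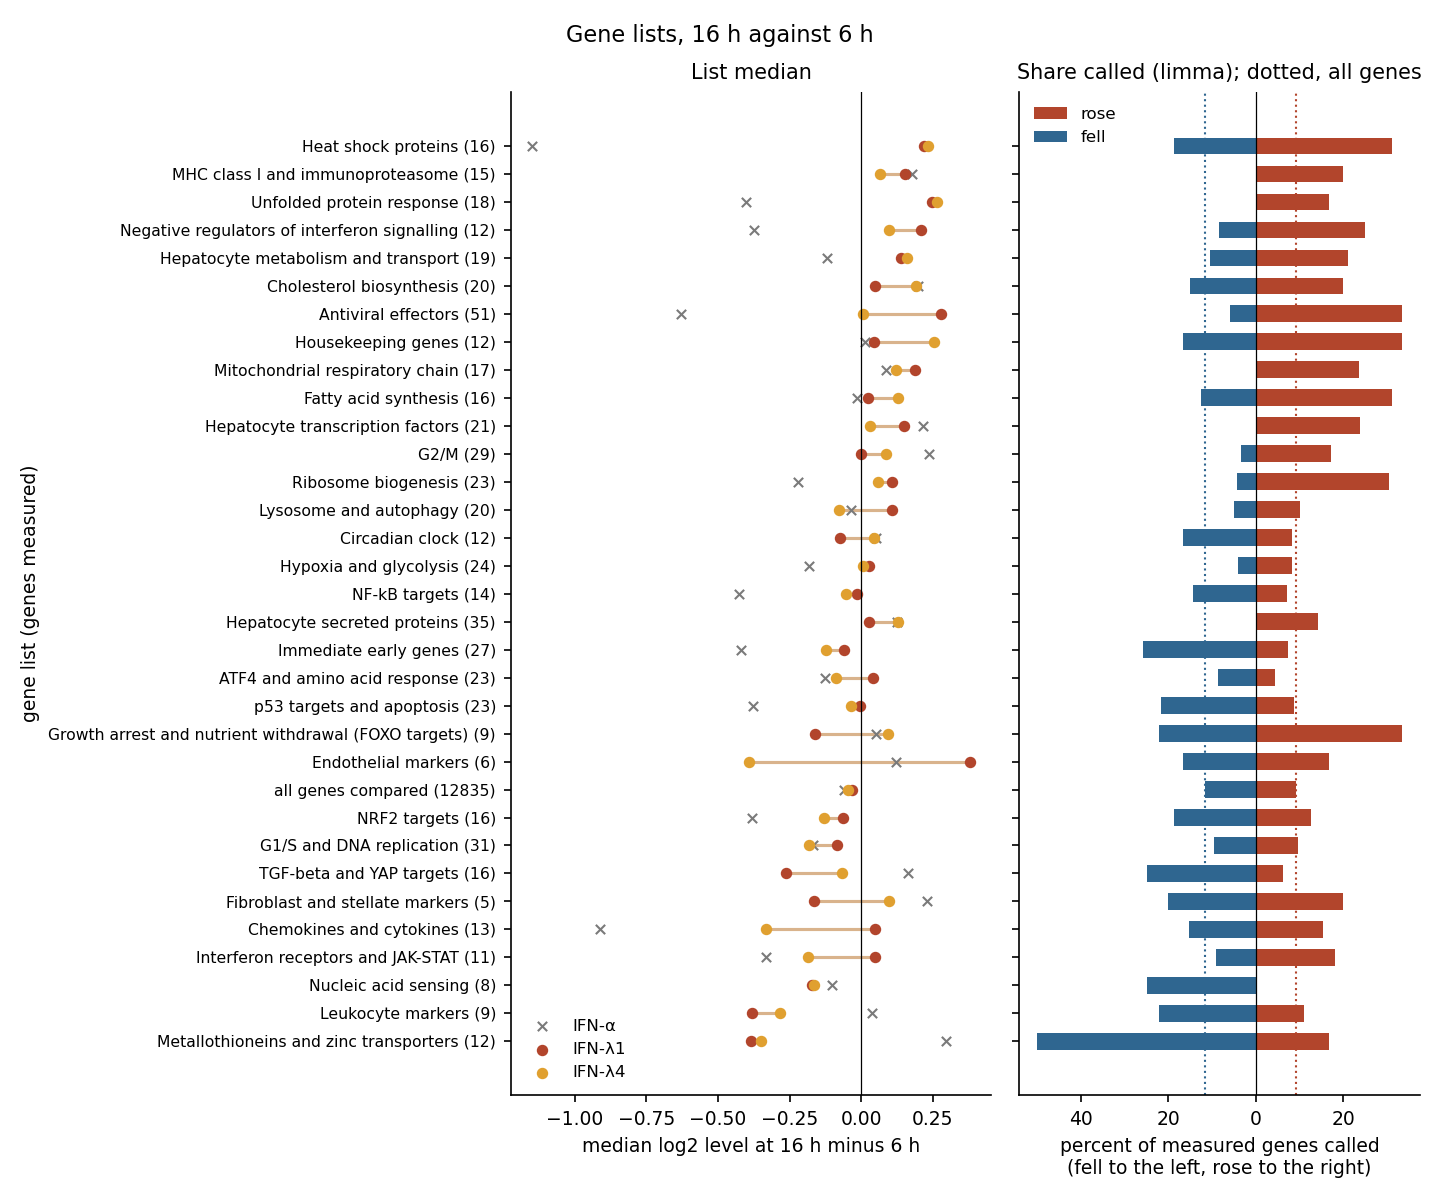
Left, median change from 6 h to 16 h in log2 units of each gene list, with circles for the IFN-λ1 and IFN-λ4 pairs and crosses for IFN-α, and the number of genes measured in brackets. Right, percent of each list that rose or fell in the limma fit, with dotted lines at 9.19% and 11.6% for all genes. Metallothioneins and zinc transporters have the longest bar to the left (6 of 12), and antiviral effectors and housekeeping genes reach the same 33.3% to the right.

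The 2 interferons were set side by side without a test, since each had 1 array per time. At least 2-fold changes numbered 64 higher (0.499%) and 68 lower (0.53%) in the IFN-λ1 pair, and 203 higher (1.58%) and 131 lower (1.02%) in the IFN-λ4 pair. The SD of the change over all genes was 0.40 with IFN-λ1 and 0.45 with IFN-λ4. At 6 h 137 genes (1.07%) were 2-fold above untreated and 85 (0.662%) below it with IFN-λ1, against 262 (2.04%) and 158 (1.23%) with IFN-λ4. At 16 h IFN-λ1 had 123 (0.958%) above and 30 (0.234%) below, and IFN-λ4 had 127 (0.989%) above and 26 (0.203%) below. In opposite directions 1 gene changed 2-fold in the pairs.

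The time change with IFN-λ differed from that with IFN-α for 2480 genes (19.3%) in a limma interaction fit, 1328 of them above 0 (10.3%) and 1152 below 0 (8.98%). The IFN-α pair was 1 array per time, its changes had an SD of 0.59, and its own array error enters no residual, so the interaction p-values do not hold the spread of IFN-α cultures. The doses were given in different units. With median centring 78.9% of calls lay above 0, against 53.5% here. Of the 1180 genes that rose with IFN-λ, 639 were also higher at 16 h with IFN-α, beside 5743 of all 12835 genes. Of the 1488 that fell, 895 were also lower with IFN-α, beside 7079 of all genes.

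Of the 51 antiviral effectors measured, 30 had a higher time change with IFN-λ and none a lower one, against 10.3% and 8.98% of all genes. With IFN-α 24 of the 51 were at least 2-fold lower at 16 h and 2 were higher by as much, a count without a test. The IFN-α median of the 51 was −0.63. Of all genes 505 (3.93%) were lower and 551 (4.29%) higher by as much. IFIT1 went from 182669 to 15914 with IFN-α, while both IFN-λ pairs rose, a difference of 4.11 (adjusted p = 5.55e-06, limma). IFIT3 went from 9280 to 453 with IFN-α, a difference of 4.36 (adjusted p = 0.000116, limma).

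The RNA sensor RIGI went from 16690 to 1612 with IFN-α, from 3826 to 3010 with IFN-λ1 and from 3464 to 2187 with IFN-λ4, and although RIGI fell with IFN-λ (−0.51 ± 0.15, adjusted p = 0.0357, limma), the difference was 2.87 (adjusted p = 0.000361, limma). IRF1, a transcription factor induced early by interferons, went from 19221 to 3756 with IFN-α. On the probe used it stayed near its level with IFN-λ, at 3593 and 3475, then 4364 and 3640 (difference 2.20, adjusted p = 0.000758, limma). A second probe of IRF1 changed by −0.33 and −0.83 in the IFN-λ1 and IFN-λ4 pairs, and that of RIGI by −0.39 and 0.18. EIF2AK2 went from 3043 to 1419 with IFN-α, back to near its untreated level, against its rise with IFN-λ (difference 2.30, adjusted p = 0.000831, limma). USP18 went from 8629 to 4650 (difference 2.07, adjusted p = 0.000758, limma).

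For BST2 and UBE2L6 the difference did not pass the test. BST2 went from 719 to 1871 with IFN-α, with a difference of 0.15 (adjusted p = 0.778, limma). UBE2L6 went from 19416 to 40047 with IFN-α (difference −0.17, adjusted p = 0.612, limma). IFITM1 stayed at 13953 and 13245 with IFN-α, above both IFN-λ at each time (difference 1.55, adjusted p = 0.00642, limma), and IFI6 went from 7678 to 10499 (difference 1.49, adjusted p = 0.00273, limma).

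Metallothioneins differed in the other direction. MT1X went from 138192 to 170478 with IFN-α, against the fall with IFN-λ (difference −1.83, adjusted p = 0.000842, limma). MT1E went from 151429 to 234031 (difference −1.35, adjusted p = 0.00221, limma) and MT2A from 158984 to 204320 (difference −0.81, adjusted p = 0.0141, limma). In the list of 12, 5 time changes were lower with IFN-λ and 2 were higher, against 8.98% and 10.3% of all genes. WNT11 went from 2191 to 3574 with IFN-α (difference −2.09, adjusted p = 0.0017, limma), and CYP1A1 went from 34601 to 25320, a smaller step than with IFN-λ (difference −1.37, adjusted p = 0.00215, limma). CYP1B1 went from 2962 to 910, and its difference of −0.68 did not pass the test (adjusted p = 0.178, limma).

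Heat shock proteins also differed, with 11 of 16 time changes higher with IFN-λ and 1 lower, against 10.3% and 8.98% of all genes. HSPH1 went from 61408 to 15225 with IFN-α, and its difference was 2.76 (adjusted p = 8.96e-05, limma). The IFN-α median of the list was −1.15, with 10 of 16 members at least 2-fold lower at 16 h, against 3.93% of all genes. HMOX1 went from 21291 to 1530 with IFN-α (difference 2.80, adjusted p = 0.000609, limma). These IFN-α values rest on 1 array of 6 h, on which HMOX1 was 22.6-fold above untreated.

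**Figure D5:**
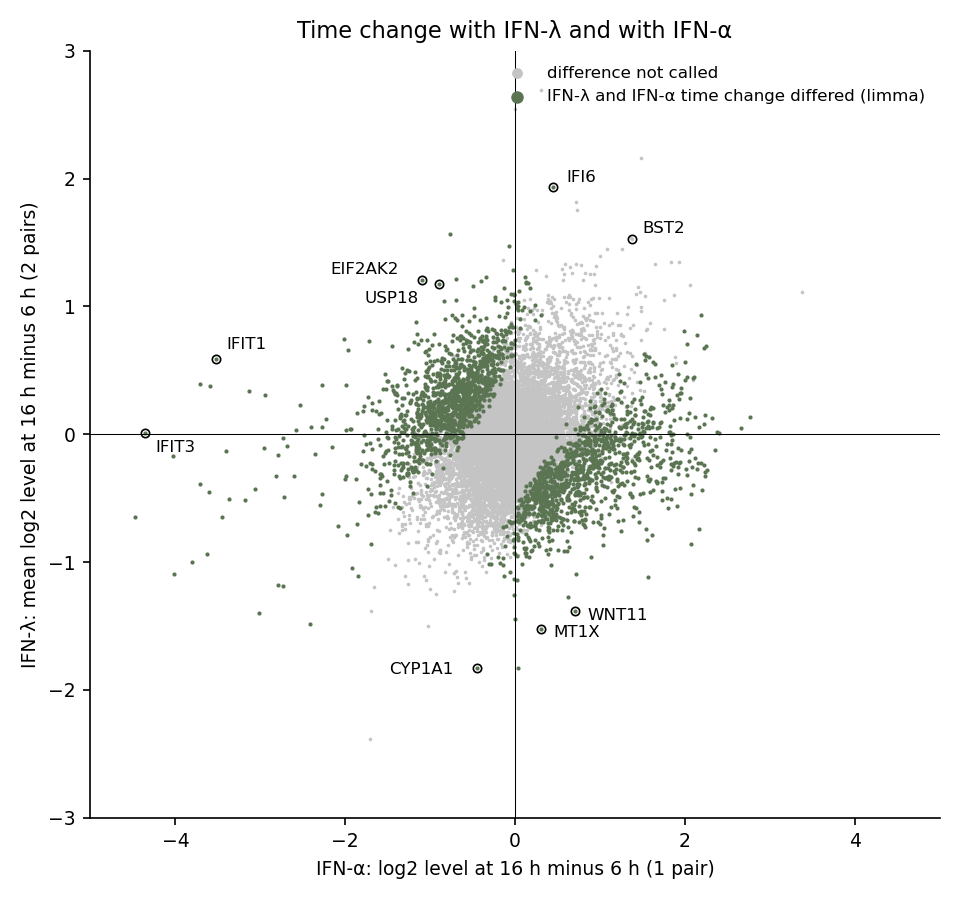
Change from 6 h to 16 h in log2 units with IFN-α (1 pair, horizontal axis) and the mean of both IFN-λ pairs (vertical axis) for 12835 genes (4 lie outside the axes). Green points are the 2480 genes whose time change differed in the limma interaction fit. IFIT1 and IFIT3 lie far to the left with IFN-λ changes of 0.59 and 0.01, and MT1X lies at the lower right.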

How the data were processed

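The 7 arrays held 1 linear Cy5 intensity per probe as deposited by the authors. The labels give the interferon, dose and time. No source used here gives the scanner or says how the deposited intensity values were scaled. Intensities were floored at 1, turned to log2 and quantile normalized over the 7 arrays (numpy 2.4.6, pandas 2.3.3, scipy 1.17.1, Python 3.11.15). Of 31741 probes 24740 had 1 gene symbol, 977 several and 6024 none in the platform annotation, and 1948 symbols were updated. Each of 18336 genes was read from its brightest probe on average. Of these, 12835 genes were kept whose mean over the arrays passed the 30th percentile of all gene means (an intensity of 265).

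limma 3.58.1 (R 4.3.3; lmFit and eBayes with a variance trend) compared 16 h with 6 h over the 4 IFN-λ arrays with interferon as a block (1 residual degree of freedom), with Benjamini-Hochberg adjustment over all 12835 genes and a threshold of 0.05. A second fit over the 6 treated arrays tested the interaction of time with IFN-λ against IFN-α, with the disagreement of the IFN-λ pairs as its residual. "Rose" and "fell" refer to these tests, and other comparisons of single arrays have no test. The p-values measure the spread between these arrays, which may be technical, and the number of arrays limits the precision. The steps were tested on simulated data, on which false calls exceeded the share that the adjusted p names, so the adjusted p-values may be too small.

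Named genes were the 15 highest and 15 lowest by the smaller pair difference, the 4 members of each of 32 lists with the largest mean, the 5 largest differences from IFN-α in each direction and 20 fixed genes, with no deposited intensity under 50. These lists, members and rules were chosen with earlier results of these data known. Promoters came from RefSeq (GRCh38.p14) and were matched by symbol. Alternatives were median centring, the deposited scaling, other filters and floors, the mean over probes, other fold thresholds, no variance trend, robust moderation, no block and the IFN-α pair included. Leaving out each array without a block, and leaving out genes with an intensity under 50 on 1 array, were chosen after seeing the data. Figures were drawn with matplotlib 3.10.9.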

Additional observations from a re-analysis of the deposited data

Results flagged for a closer look

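The time change differed between IFN-λ and IFN-α for 2480 genes in the limma interaction fit, and the 10 genes with the largest named differences are given here. The cause of these differences was not tested. IFIT1 (4.11) and IFIT3 (4.36) were the antiviral genes among them.

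For 3 genes a single IFN-α array stood apart. CNR2, a cannabinoid receptor, read 54216 with IFN-α at 6 h and 201 to 248 on the other 6 arrays, a difference of 7.94. Those 6 readings lay below the dim limit of 265, all 4 IFN-λ arrays among them. CNR2 thus passed the dim filter only through the array that makes the difference. PHLDA2 read 108 with IFN-α at 16 h, below the dim limit, and 2792 to 4674 on the other 6 arrays, a difference of 4.75. ARL6 read 3898 with IFN-α at 6 h and 298 to 448 on the other 6 arrays, a difference of 4.10.

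For 5 genes the IFN-α array of 16 h was higher than that of 6 h while the IFN-λ mean was lower or near 0. SLC27A1, a fatty acid transporter, went from 16248 to 110295 with IFN-α against 2551 to 3588 on the other arrays, a difference of −2.63. HERC3 went from 9064 to 41731 (difference −2.64), P2RY8 from 2536 to 10617 (−2.93), FHIP1A from 459 to 2058 (−2.90) and RETNLB from 1031 to 3052 (−2.68).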

How the results depend on the processing

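Main counts were 2668 genes changed over time, 2480 differing from IFN-α and 72 at least 2-fold in both pairs. The time count was 0 with the IFN-α pair included, 707 with no interferon block and 5 to 2006 when 1 array was left out without the block, where fewer arrays carry the comparison. It was 1879 to 2929 under the other alternatives. The interaction count was 1581 without the variance trend and 1791 to 3017 otherwise. The 2-fold count was 787 at 1.5-fold, 4 at 3-fold, 132 in the IFN-λ1 pair alone and 334 in the IFN-λ4 pair alone. The share of genes with the same direction was 71.8%, and it was 71.0% with the deposited scaling, 74.9% with the dim filter at the 50th percentile, 67.6% with median centring and 66.8% with no filter. The share of time calls that rose was 44.2%, 37.4% with median centring, 36.0% with the deposited scaling and 51.6% with the mean over probes. Median centring moved the median change of all genes to −0.14 (IFN-λ4) and −0.34 (IFN-α), and the deposited scaling moved that of IFN-λ1 to −0.12. With the IFN-α pair included the mean reversed for EGR1 (−0.10), FHIP1A (0.23), HSPH1 (−0.17), IFIT1 (−0.78), P2RY8 (0.11) and RORA (0.24), and with the mean over probes for LAMP2 (0.40). The cause was not tested, apart from the averaging in of IFN-α arrays that moved the opposite way. Of 136 named genes called, 54 stayed called under each of 10 processing settings that kept them, which leave out the added IFN-α pair and the fits without 1 array. Median centring also ended the calls for GAPDH, ME1 and PCNA, and the mean over probes those for ID3, POLR1B, ZMAT3, CENPA, STAT3, IFNAR2 and CASZ1. No paired analysis by replicate number was possible because each condition had 1 array.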
